A study of Glycyrrhiza uralensis with 15 samples.

Results

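Of the 30197 genes measured in whole licorice seedlings, 245 (0.811%) stood apart in a single group. These were higher in droughted plants given both Bacillus pumilus strain G5 and silicon (the group DBSi) than in every other group. They were chosen by measured values. The lowest DBSi library of a gene had to lie above the highest of the 12 libraries of the other groups, its DBSi mean had to reach 5 CPM, and that mean had to be at least 3 times the mean of each of the other 4 groups. CPM is the count of reads of a gene scaled to the same total in every library. Because the choice rests on the DBSi values, the DBSi levels and ratios given here are descriptions and carry no test.

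The plants were Glycyrrhiza uralensis, the licorice of dry Asian grassland and desert, whose roots are known for the sweet triterpenoid glycyrrhizin. Bacillus pumilus is a spore-forming soil bacterium, and strains of it are used as plant growth promoters. Silicon is taken up by roots as silicic acid and is deposited as silica in plant tissue, and it is known to ease water stress in many crops. Seedlings were 45 days old and grew in pots of nutrient-free, sterilized desert sand sown with 60 seeds each. There were 3 libraries in each of 5 groups. DBSi plants were droughted with G5 and silicon, although the labels give neither their sand moisture nor their silicon dose. DSi plants were droughted with 2 mM silicon, and DB plants were droughted with G5. D plants had drought alone, at 35 to 45% of the saturation moisture of the sand, the level also given for DSi and DB. CK plants were kept at 65 to 75% with no addition. A name such as DSi-1 stands for replicate 1 of DSi.

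Each library was full-length cDNA read on a nanopore instrument and held from 3039422 to 4043823 reads assigned to genes. The DBSi libraries held 3328854, 3506836 and 3222338 reads, within the range of the others. One read thus counted for 0.247 to 0.329 CPM. The labels do not say that the replicates came from separate pots, so the spread between libraries may be technical. Since whole plants were sampled, a larger share of a tissue and more RNA per cell in that tissue cannot be told apart for any gene below.

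The files pair the IDs with no gene names, so the genes are given by ID, with no function, position or sequence. Of the 245 genes, 229 (93.5%) carried a Glyur ID and 16 (6.53%) an ID beginning with ONT. Among the 14810 genes with a DBSi mean of 5 CPM or more, the level the choice asked for, 4.91% carried an ONT ID.

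When the same limits were applied with another group in the place of DBSi, the 245 genes of DBSi stood against 2 for DSi, 0 for DB, 1 for D and 33 for CK. The count for each of the other groups was higher when any 1 of its own libraries was left out, which leaves fewer libraries to meet the limit on overlap. For DSi it was 14 without DSi-1, 6 without DSi-2 and 11 without DSi-3. For D it was 7 without D-1, 8 without D-2 and 5 without D-3. For DB it was 2 without DB-1, 1 without DB-2 and 3 without DB-3. For CK it was 89 without CK-1, 38 without CK-2 and 77 without CK-3. The DBSi count ran from 198 to 296 over the 15 sets that leave out 1 library each.

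Together the 245 genes took 3.32%, 3.05% and 3.15% of all reads in the DBSi libraries. In DSi they took 1.21%, 0.503% and 0.508%, and in DB 0.626%, 0.628% and 0.474%. In D the shares were 0.391%, 0.471% and 0.474%, and in CK 0.403%, 0.552% and 0.401%. The 3 DBSi libraries lay close together, at 3.17 ± 0.136% (SD, n = 3), and every one of the 9 libraries of DB, D and CK lay at 0.628% or less. DSi-1 was the only library between these levels, and the DSi mean of 0.741 ± 0.408% (SD, n = 3) was 0.505% over DSi-2 and DSi-3. With the 10 most abundant genes left out, the others took 2.38%, 2.26% and 2.30% in DBSi. They took 0.876% in DSi-1 and at most 0.457% in any other library. The limits made every chosen gene highest in the DBSi libraries, so leaving genes out could not change the place of DBSi. Only the order of the libraries outside DBSi was free to change, and DSi-1 stayed the highest of them.

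**Figure D1:**
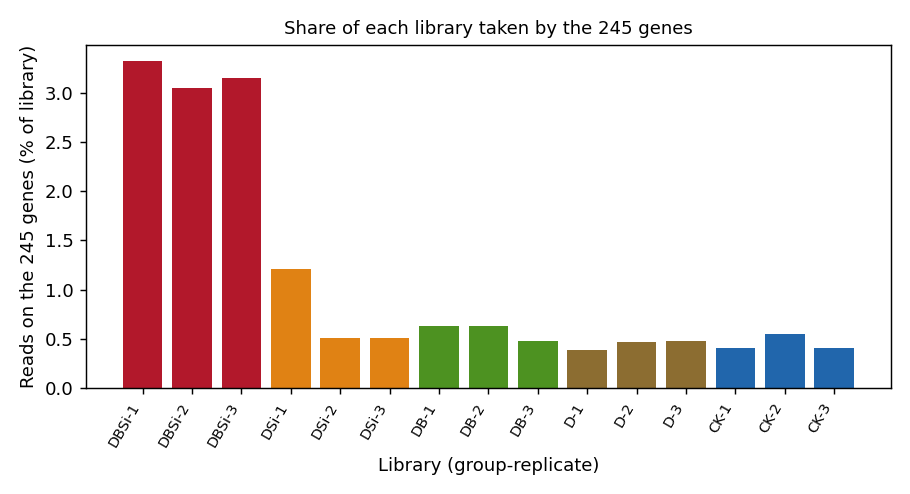
Each bar is 1 library and shows the percent of its reads that fell on the 245 genes, with groups in the order DBSi, DSi, DB, D and CK. The 3 DBSi bars stand at 3.05 to 3.32%, DSi-1 stands at 1.21%, and the others stand at 0.391 to 0.628%.

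DSi-1 stood apart from the other silicon libraries in these genes. It was the highest of the 12 libraries outside DBSi for 174 of the 245 genes (71.0%), and for 1627 of the 14810 genes at 5 CPM or more in DBSi (11%). DSi-2 and DSi-3 were the highest for 1 gene each. CK-2 followed DSi-1 with 16 genes, DB-1 with 15, and CK-1 and DB-2 with 12 each. DSi-1 was above both DSi-2 and DSi-3 in 230 genes (93.9%, against 37.3% of the 14810), and at 2 or more times their mean in 154 genes (62.9%, against 4.19%). The limits also used these 12 libraries, so the counts are descriptions and carry no test.

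A version of the choice that ignored DSi-1 altogether gave 296 genes, which held all 245. DSi-1 was the highest of the 12 other libraries for 223 of them (75.3%), and in 17 it reached the lowest DBSi library. Left out in the same way, DB-1 was the highest for 8.33% of the genes chosen without it, CK-2 for 7.76%, CK-1 for 7% and each of the other 8 libraries for 5.67% or less. Only 11 genes met the mirrored limits, with DBSi low. DSi-1 was the lowest of the 12 libraries in 2 of them, as were CK-2 and DB-3, and no other library was lowest in more. So few genes do not show whether DSi-1 also stood apart there. The depth of DSi-1, 3214818 reads, was within the range of the others. Whether its label or its handling has a part in these values was not tested.

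The level of DSi-1 was intermediate and varied from gene to gene. The median gene stood in DSi-1 at 36.8% of its DBSi mean, against 13.8% in DSi-2 and 15% in DSi-3. The medians were 19.6%, 17.9% and 11.8% in DB-1, DB-2 and DB-3, and they ran from 9.9 to 16% in the D and CK libraries. Measured from the mean of DSi-2 and DSi-3, DSi-1 lay 25.6% of the way to the DBSi mean in the median gene, with quartiles of 14.8 and 34.6%. Among the 93 genes with a DBSi mean of 100 CPM or more, this position ran from 7.82 to 54.8%, with a median of 27.0%. Across the 245 genes it had a Spearman correlation of 0.13 with the DBSi level, over genes that share the same libraries.

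**Figure D2:**
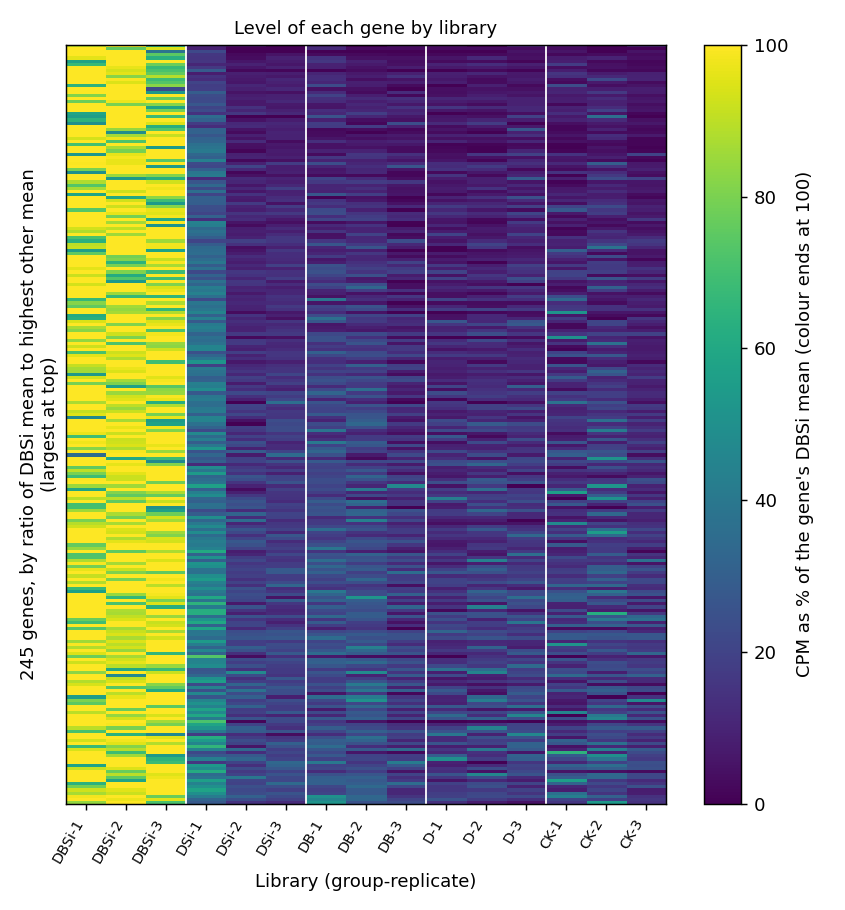
Rows are the 245 genes, ordered by the ratio of the DBSi mean to the highest other group mean, columns are libraries, and colour is the CPM of the gene as a percent of its DBSi mean, ending at 100. The DSi-1 column is lighter than the columns of the other 11 libraries outside DBSi over most rows.

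**Figure D3:**
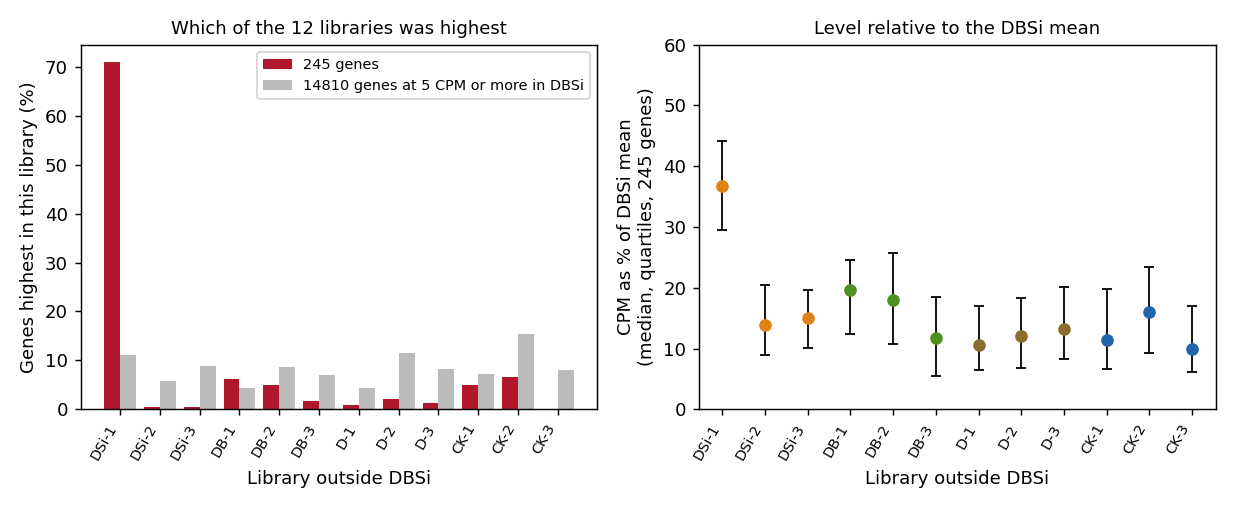
The left panel shows, for each library outside DBSi, the percent of genes for which it was the highest of the 12, among the 245 genes and among the genes at 5 CPM or more in DBSi. The right panel shows the median and quartiles over the 245 genes of the CPM as a percent of the DBSi mean. DSi-1 holds 71.0% of the 245 genes in the left panel and has a median of 36.8% in the right panel.

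The chosen genes spanned a wide range of levels, in CPM that are not scaled for gene length. Their DBSi means ran from 5.67 to 2092 CPM with a median of 55.5 CPM. There were 26 genes below 10 CPM, 90 from 10 to 50, 36 from 50 to 100, 81 from 100 to 500, and 12 above 500. Median levels of the same genes were 10.9 CPM in DSi, 7.94 in DB, 6.35 in D and 7.11 in CK. At least 1 read was found in all 12 other libraries for 209 of the 245, and none lacked reads in all 12. A count of 1 read lies under the 3 reads taken here as measurable. The DBSi mean was 4.09 times the highest other group mean in the median gene, with quartiles of 3.40 and 5.46. It was at least 5 times that mean in 76 genes and at least 10 times in 6.

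The highest DBSi mean was that of Glyur000045s00009984. It had 2202, 1844 and 2229 CPM in DBSi, 821, 276 and 303 in DSi, 301, 372 and 224 in DB, 170, 187 and 259 in D, and 63.8, 255 and 166 in CK. The DBSi libraries were far above all others, DSi-1 came next, and the remaining 11 overlapped between groups. Its DBSi mean of 2092 ± 215 CPM (SD, n = 3) was 4.48 times the DSi mean and 12.9 times the CK mean.

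Glyur000015s00000795 had 1059, 1146 and 1110 CPM in DBSi, 413, 98.1 and 106 in DSi, 254, 210 and 191 in DB, 94.6, 129 and 171 in D, and 71.8, 186 and 162 in CK. Its DBSi libraries differed by little, and all 3 DB libraries lay above all D and CK libraries. Glyur000187s00024034 had 1082, 698 and 868 CPM in DBSi, 273, 97.2 and 95.5 in DSi, 116, 158 and 97.2 in DB, 98.0, 84.2 and 128 in D, and 23.9, 76.5 and 63.3 in CK. Here the 3 CK libraries were the lowest of all, and the DBSi mean was 16.2 times that of CK and 5.68 times that of DSi.

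Glyur000144s00012238 had 1060, 630 and 691 CPM in DBSi, 230.5, 90.04 and 149.6 in DSi, 197, 126 and 87.2 in DB, 131, 66.5 and 150 in D, and 132, 135 and 67.9 in CK. Outside DBSi its groups overlapped. Glyur001880s00033690 had 902, 679 and 639 CPM in DBSi, 286, 176 and 197 in DSi, 158, 172 and 145 in DB, 241, 173 and 149 in D, and 147, 163 and 84.8 in CK. Its ratio to the next group, DSi, was 3.37.

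Glyur000294s00011880, Glyur000007s00002788 and Glyur000229s00018878 were abundant genes for which libraries outside DSi came close to or above DSi-1. Glyur000294s00011880 had 886, 867 and 459 CPM in DBSi, 303, 187 and 97.2 in DSi, 221, 189 and 242 in DB, 112, 322 and 157 in D, and 66.3, 86.5 and 152 in CK, so that D-2 was the highest outside DBSi. Glyur000007s00002788 had 619, 558 and 694 CPM in DBSi, 265, 115 and 145 in DSi, 149, 136 and 77.3 in DB, 66.5, 75.0 and 66.2 in D, and 321, 131 and 107 in CK, where CK-1 stood out. Glyur000229s00018878 had 561, 533 and 700 CPM in DBSi, 265, 203 and 111 in DSi, 160, 167 and 206 in DB, 94.6, 238 and 167 in D, and 57.9, 257 and 166 in CK. In this last gene CK-2 and DSi-1 differed by little.

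By the ratio of the lowest DBSi library to the highest other library, the 8 best separated genes had DBSi means from 6.29 to 329 CPM. The median of all 245 genes, 55.5 CPM, lay within this range. The lowest DBSi library was 2 or more times the highest other library in 116 genes and 3 or more times in 29, with a median of 1.97 and a highest value of 6.48. Glyur000026s00001925 had that highest value, at 5.71, 9.13 and 4.03 CPM in DBSi and at most 0.622 CPM in any other library. It had 64 reads over DBSi and 3 reads over DSi, a ratio per read sequenced of 22.5 with a counting interval of 7.35 to 112 (exact, 95%). The gene was chosen by these same reads, so the interval describes counting error only and does not allow for that choice. Glyur000025s00003378 had 13.2, 7.70 and 9.62 CPM in DBSi, against 0.933, 0 and 0 in DSi, 1.20, 0.307 and 0.310 in DB, 0.287, 0.329 and 0.304 in D, and 0.324, 0 and 0 in CK. These 2 genes were close to silent outside DBSi, at or near the limit of 3 reads, which is 0.742 to 0.987 CPM.

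Glyur000117s00007621 had 117, 73.9 and 80.4 CPM in DBSi, 13.1, 6.90 and 5.69 in DSi, 11.4, 7.67 and 12.4 in DB, 7.45, 4.94 and 5.77 in D, and 12.3, 10.5 and 8.71 in CK. Glyur000190s00015737 had 91.6, 68.4 and 54.3 CPM in DBSi, 5.60, 6.30 and 5.94 in DSi, 7.47, 4.91 and 6.21 in DB, 6.31, 7.90 and 4.86 in D, and 11, 5.41 and 6.68 in CK. Its DSi-1 value was the lowest of the 3 DSi libraries, so this gene did not share the intermediate level of DSi-1. Glyur000618s00030223 had 40.9, 36.2 and 35.7 CPM in DBSi, 7.78, 5.70 and 6.18 in DSi, 8.67, 5.83 and 4.66 in DB, 6.02, 4.61 and 7.90 in D, and 2.59, 6.83 and 2.03 in CK, and DSi-1 lay among the other libraries here as well.

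Glyur000036s00004638 did show it, with 197, 209 and 135 CPM in DBSi, 29.6, 4.50 and 9.64 in DSi, 5.38, 4.30 and 3.41 in DB, 3.73, 4.61 and 6.68 in D, and 3.56, 5.69 and 5.23 in CK. Glyur001526s00032538 had 447, 318 and 222 CPM in DBSi, 54.7, 19.8 and 29.9 in DSi, 30.2, 16.0 and 25.8 in DB, 23.8, 25.3 and 19.7 in D, and 12.3, 15.9 and 11.03 in CK. All 3 CK libraries of this gene were below all 3 D libraries, and its DBSi mean was 25.1 times that of CK and 9.44 times that of DSi. Glyur000048s00002277 had 33.0, 48.5 and 21.7 CPM in DBSi and from 1.20 to 5.29 CPM in the 12 other libraries, which overlapped between groups.

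**Figure D4:**
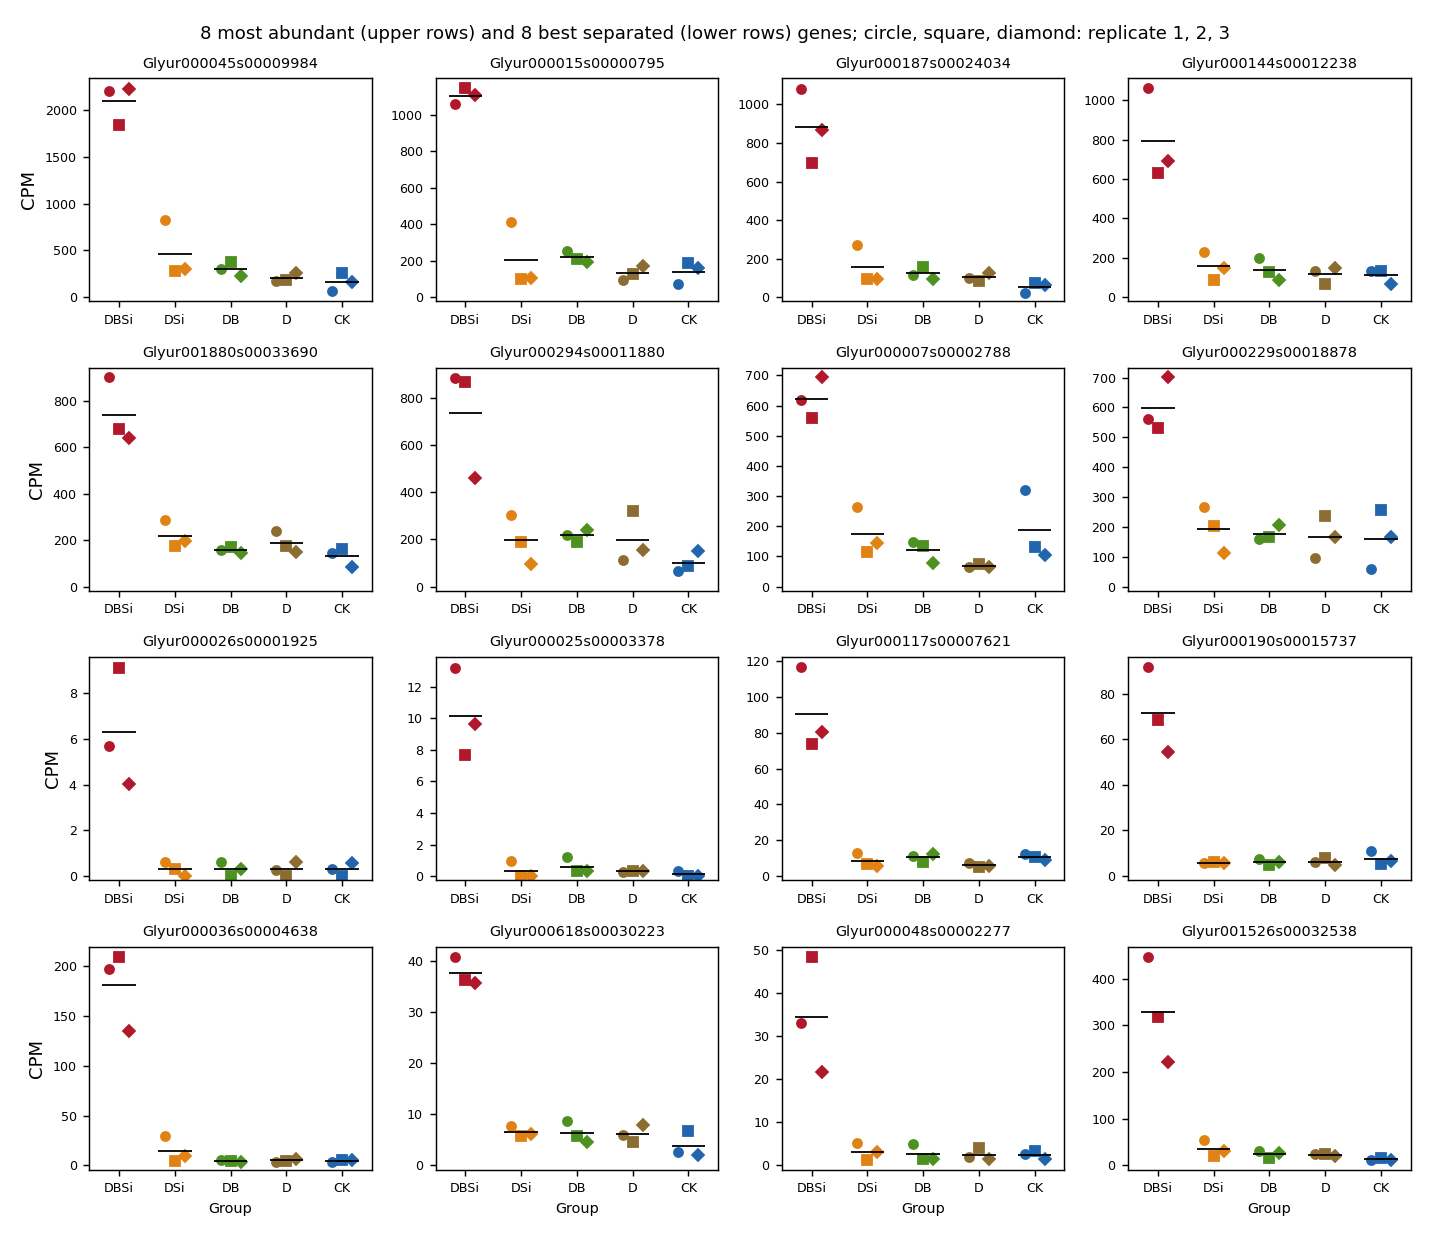
Each panel is 1 gene and each point 1 library, with CPM on a linear axis from 0, groups in the order DBSi, DSi, DB, D and CK, and a line at each group mean. The upper 2 rows hold the 8 most abundant genes and the lower 2 rows the 8 best separated. The DBSi points lie above all others, and DSi-1 (circle) is the next highest point in 11 of the 16 panels.

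At the other end, in 4 genes the lowest DBSi library was at most 1.04 times the highest of the others. Glyur001296s00027377 had 3.004 CPM in DBSi-1 and 2.97 in DSi-3, with 8.84 and 13.7 CPM in DBSi-2 and DBSi-3. Glyur000009s00001379 had 34.8 CPM in DBSi-1 and 34.2 in DSi-1, Glyur000529s00019342 had 3.41 in DBSi-3 and 3.34 in D-3, and Glyur000947s00021188 had 54.5 in DBSi-2 and 52.6 in DSi-1. Glyur000529s00019342 rested on DBSi-1, at 13.5 CPM, and without it its ratio to the highest other mean was 1.74 in place of 3.13. Just outside were Glyur000198s00008763, Glyur000052s00005809 and Glyur001406s00030086, whose lowest DBSi library was 0.966, 0.917 and 0.801 times DSi-1, the highest other library in each. Only 20 genes failed on this limit alone, since 265 met the limits on the means.

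The limit on the ratio to the other means removed more, since 759 genes met the other 2 limits. Just inside it were Glyur000413s00015472, Glyur000281s00018231 and Glyur001352s00036835, at 3.01, 3.01 and 3.02 times the DB mean, and just outside were Glyur000660s00025404, Glyur000147s00013879 and Glyur000404s00017745, at 2.995, 2.994 and 2.986 times the highest other mean. The limit of 5 CPM excluded 44 of 289 genes. The least abundant genes inside it were ONT.17312, Glyur000023s00004904 and ONT.2795, at 5.67, 5.70 and 5.84 CPM in DBSi, and the nearest outside were Glyur001804s00033606, Glyur000109s00010626 and Glyur000031s00004390, at 4.72, 4.72 and 4.70 CPM. ONT.17312 was the only one of the 245 genes with no read in any of the 3 libraries of another group, which was DB.

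Within DBSi the genes did not follow 1 library. DBSi-1 was the highest of the 3 for 105 genes, DBSi-2 for 66 and DBSi-3 for 74, and the lowest was DBSi-1 for 87 and DBSi-2 and DBSi-3 for 79 each. The coefficient of variation over the 3 libraries had a median of 23.3% in the 245 genes and of 19.7% in the 14810. DBSi-1 was 2 or more times the mean of DBSi-2 and DBSi-3 in 13 genes, and at most 0.5 times that mean in 15. The position of DSi-1 did not track this difference, with a Spearman correlation of -0.09 over the 245 genes between that position and the ratio of DBSi-1 to the mean of DBSi-2 and DBSi-3.

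When the genes were chosen with 2 DBSi libraries, the DBSi library not used for the choice was also high. Without DBSi-1 the limits gave 256 genes, and in 236 of them (92.2%) DBSi-1 was above all 12 libraries of the other groups. The counts were 249 of 258 (96.5%) for DBSi-2 and 241 of 256 (94.1%) for DBSi-3. Over the 14810 genes, the same libraries were above all 12 in 10.8%, 11.7% and 20.6%. The library not used was at least 3 times the highest other group mean in 66.8%, 71.7% and 72.7% of the genes so chosen, and in 1.98%, 1.74% and 2.03% of the 14810. The 12 other libraries entered both the choice and these counts. The 14810 genes were taken by the mean of all 3 DBSi libraries and did not have to be high in the 2 used for the choice. The gap between the shares is therefore a description and no test.

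Whether the genes also moved with silicon alone, with G5 alone or with drought was examined in the 12 libraries outside DBSi. The limits had capped these libraries from above, so the counts of calls are given beside those over all genes and nothing is read from them about the chosen genes. Of the 245 genes, 238 had 1 CPM or more in at least 3 of these libraries and were tested beside all others, 22322 genes in all. No member passed the threshold of 0.05 in limma's adjusted p-value for DSi against D, DB against D, DB against DSi or D against CK, and none did in edgeR. Over all tested genes limma called 0.0134%, 0.336%, 0% and 0.0224% in these 4 comparisons, and edgeR called 0%, 0.287%, 0% and 0.00896%. DESeq2 called 4, 3, 0 and 1 of the 238, and 0.736%, 2.3%, 0.0508% and 0.523% of all genes with an adjusted p. Among the 238, a gene to which DESeq2 gave no adjusted p counted as not called, so the 2 shares differ in their base. The test over the 4 groups at once called 0 of the 238 in limma and in edgeR, against 0.157% and 0.175% of all genes. In DESeq2 it called 11 of the 238, against 2.45% of all genes with an adjusted p. At an unadjusted limma p under 0.05 the same test listed 42 of the 238 (17.6%) and 11.1% of all genes.

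For silicon, 53 of the 238 genes (22.3%) had an unadjusted limma p under 0.05 in DSi against D, and 7.74% of all genes did. The log2 difference, on the log2(CPM + 1) scale, was positive in 212 of them (89.1%, against 58.9% of all genes), with a median of 0.61 over the 238 and 0.07 over all. These values rested on DSi-1. Without it, 16 of 237 genes (6.75%) had an unadjusted p under 0.05, against 5.24% of all genes, 155 (65.4%) were positive against 58.0%, and the medians were 0.22 and 0.06.

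For G5, 34 of the 238 genes (14.3%) had an unadjusted limma p under 0.05 in DB against D, and 12% of all genes did. The difference was positive in 173 (72.7%, against 44.2% of all genes), with a median of 0.26 over the 238 and -0.06 over all. The DB libraries were not alike in this. Relative to the DBSi mean, the median gene stood at 19.6% in DB-1 and 17.9% in DB-2. DB-3, at 11.8%, lay within the 10.7 to 13.2% of the D libraries. The share of positive differences was not taken with a DB library left out. For drought itself, 15 genes (6.30%, against 7.69% of all) had an unadjusted p under 0.05 in D against CK, 111 were positive (46.6%, against 41.3%), and the medians were -0.04 and -0.07. In DB against DSi, 14 genes (5.88%, against 8.52%) had an unadjusted p under 0.05, 53 were positive (22.3%, against 36.1%), and the medians were -0.27 and -0.12. The comparisons with D share the D libraries.

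The group next below DBSi depended on DSi-1 too. The highest of the 4 other group means was that of DSi for 168 of the 245 genes, DB for 41, D for 10 and CK for 26. With DSi-1 left out of its group, it was DSi for 45, DB for 115, D for 33 and CK for 52.

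Glyur000090s00011385, singled out after its values were seen, had the lowest limma p of the 238 in D against CK. It had 442, 430 and 612 CPM in DBSi, 201, 52.2 and 80.9 in DSi, 84.9, 71.8 and 44.4 in DB, 20.1, 22.0 and 25.2 in D, and 236, 102 and 66.8 in CK. The 3 D libraries lay below all 12 others, but the log2 difference of -2.34 (SE 0.49) between D and CK did not pass (limma adjusted p = 0.239). Its DBSi mean was 22-fold its D mean, and its log2 difference between DSi and D was 2.04 (SE 0.49, limma adjusted p = 0.2545). Glyur006359s00047467, chosen likewise, had 76.0, 29.4 and 40.3 CPM in DBSi, 14.9, 3.902 and 6.18 in DSi, 0.299, 2.46 and 0 in DB, 4.87, 6.91 and 11.8 in D, and 2.91, 3.98 and 0.871 in CK. Its 3 DB libraries lay below all D libraries, and the log2 difference of -2.35 (SE 0.58) did not pass (limma adjusted p = 0.133).

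Long reads also show which transcript form of a gene was read. Isoforms could be assigned in full to 231 of the 245 genes, and 109 of these (47.2%) had 2 or more isoforms, up to 14, against 65.1% of the 13987 genes at 5 CPM or more in DBSi with a full set. The leading isoform was the same in DBSi as in the 12 other libraries for 97 of the 109 genes, and it carried an ONT ID in 75. It held a median of 77.1% of the DBSi reads of its gene.

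In 5 genes the isoforms took different shares in DBSi and in the other groups. The share of the reads of a gene that fell on an isoform was tested with limma for DBSi against the mean of the 4 other groups, on an arcsine scale, in genes with 10 or more reads in every library. That covered 128 isoforms of 52 of the chosen genes, and 9 isoforms of 5 genes passed, against 0.862% of all 12302 isoforms tested. The share was no part of the choice, but it comes from the same reads and the same contrast, so nothing is read from this proportion. The count of 9 was 2 without DBSi-1 or DBSi-3 and 4 without DBSi-2, and it was 30 when the libraries were weighted by their reads. Over all isoforms the count of 106 calls was 36 without DBSi-1, 42 without DBSi-2, 13 without DBSi-3 and 268 with weights. Glyur001043s00031421 and Glyur000350s00020053 had the largest differences, and the other 3 genes were named after their values were seen.

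Glyur001043s00031421 had the largest difference. Its isoform ONT.16023.5 held 88.7%, 87.8% and 77.9% of the reads of the gene in DBSi, and from 0 to 56.0% in the 12 other libraries, with a median of 38.0%. Its partner ONT.16023.1 held 13.8 ± 4.56% (SD, n = 3) in DBSi and from 41.1 to 100% elsewhere. The groups did not overlap for either isoform. The difference was 48.8 percentage points for ONT.16023.5 (limma adjusted p = 0.0343) and -49.0 for ONT.16023.1 (limma adjusted p = 0.0343), and it hardly moved when any 1 library was left out, at 46.5 to 52.3 points for ONT.16023.5 and -51.6 to -46.6 for ONT.16023.1. The adjusted p was less steady. Both calls were lost without any 1 of the DBSi libraries (limma adjusted p from 0.0969 to 0.143), and also without D-1, D-3, DB-1, DB-3, DSi-2 or DSi-3. That of ONT.16023.1 was lost without CK-3 or D-2 as well. In CPM, ONT.16023.5 stood at 106, 109 and 88.8 in DBSi, 37.6 in DSi-1 and at most 24.2 in any other library. ONT.16023.1 stood at 13.5, 13.7 and 21.7 CPM in DBSi, within the range of 7.12 to 35.5 CPM in the 12 others. Of these 2 forms, ONT.16023.5 was the one whose DBSi levels left the range of the other libraries. CK-1, the library with a share of 0, had 22 reads of this gene.

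Glyur000350s00020053 had 2 isoforms. Glyur000350s00020053.1 held 83.4%, 69.0% and 78.4% of its reads in DBSi, and from 21.2 to 62.7% elsewhere, a difference of 41.6 percentage points (limma adjusted p = 0.0162). Without DBSi-1 the difference was 38.4 points and without DBSi-3 it was 40.9, with limma adjusted p of 0.0862 and 0.0927. It stood at 256, 184 and 222 CPM in DBSi, 60.7 in DSi-1 and at most 25.6 in the remaining libraries. The other isoform, ONT.10295.2, stood at 51.1, 82.7 and 61.1 CPM in DBSi and from 15.2 to 53.1 CPM elsewhere. The DBSi levels of the first form lay far above all others, while those of ONT.10295.2 overlapped with DB-2 and DSi-1 at their lower end.

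Glyur000023s00004900 had the lowest limma adjusted p of the 5 genes (0.004), though the smallest differences in share. ONT.1583.1 held 94.0 ± 1.86% (SD, n = 3) of its reads in DBSi and from 57.5 to 82.6% elsewhere, with DSi-1 the highest of the 12. ONT.1583.1 stood at 435, 308 and 302 CPM in DBSi, 109 in DSi-1 and 33.7 to 55.2 in the remaining 11 libraries. ONT.1583.4 stood at 17.7, 24.2 and 21.4 CPM in DBSi and at 11.97 to 38.98 CPM elsewhere, so of this pair ONT.1583.1 alone left the range of the other libraries. The share of ONT.1583.1 differed by 27.5 percentage points (limma adjusted p = 0.004), and both isoforms of this gene passed in every set that leaves out 1 library.

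In Glyur000618s00030214, ONT.13175.3 held 71.8 ± 0.997% (SD, n = 3) in DBSi and from 29.3 to 59.9% elsewhere, again with DSi-1 the highest of the 12 (difference 30.6 percentage points, limma adjusted p = 0.0246). ONT.13175.3 stood at 106, 152 and 187 CPM in DBSi, and ONT.13175.2 at 36.0, 59.0 and 70.8 CPM in DBSi. Elsewhere they reached at most 50.7 and 37.8 CPM. In Glyur000047s00004004, ONT.2746.2 held 8.60%, 26.1% and 28.7% in DBSi and from 40.2 to 72.9% elsewhere (difference -31.7 percentage points, limma adjusted p = 0.0214). That isoform stood at 9.01, 15.4 and 15.8 CPM in DBSi, within the 6.603 to 19.2 CPM of the other libraries, while the gene as a whole met the limits for DBSi. The calls in these last 2 genes were lost without any 1 of the DBSi libraries (limma adjusted p from 0.0553 to 0.118), while the differences were 30.2 to 31.2 points for ONT.13175.3, -31 to -29.6 for ONT.13175.2 and -35.5 to -25.4 for ONT.2746.2.

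**Figure D5:**
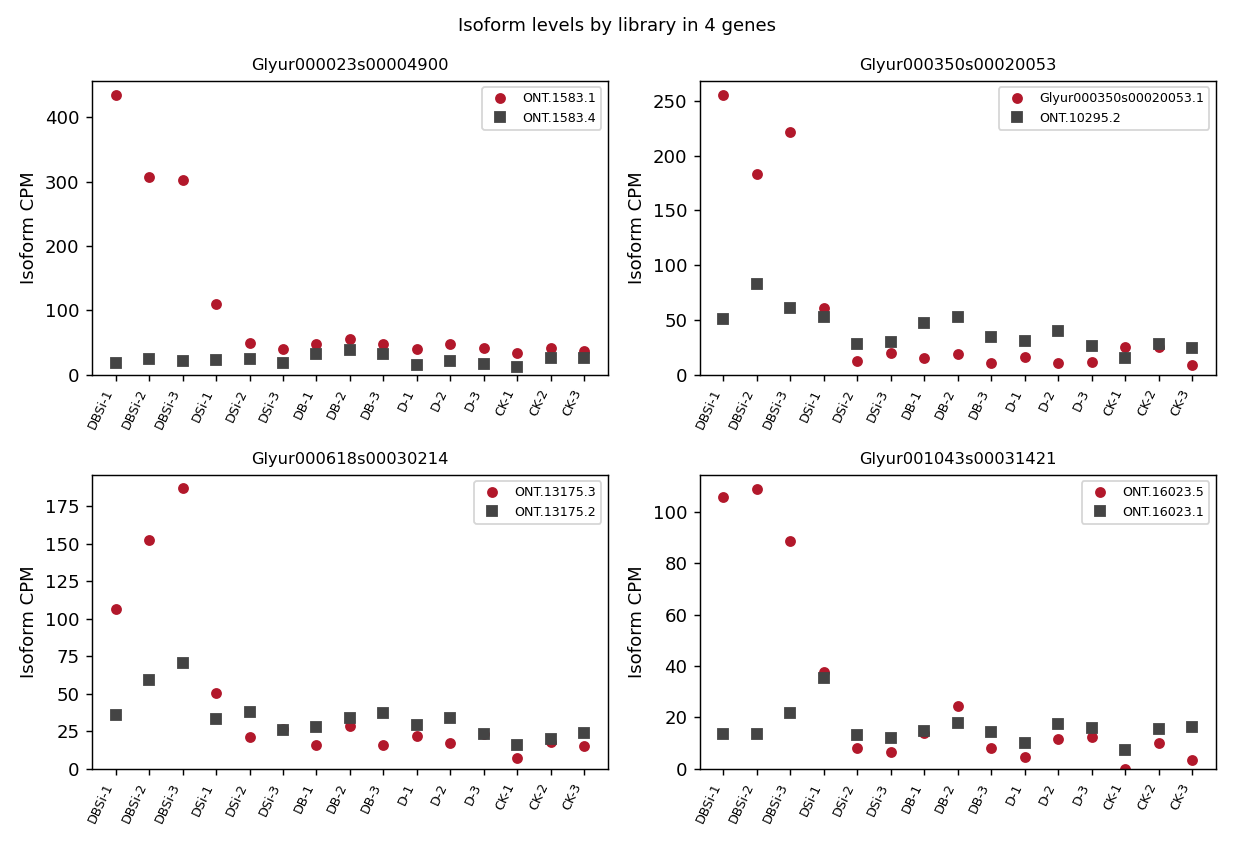
Each panel is 1 gene with its 2 isoforms called for a changed share, and points give isoform CPM on a linear axis in each library, with groups in the order DBSi, DSi, DB, D and CK. The isoform drawn with circles is the higher of the pair in every DBSi library, and in DSi-1 it stands above all 11 other libraries outside DBSi in each of the 4 genes.

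Some of the chosen genes were neighbours in the numbering of the Glyur IDs. The first 6 digits of an ID form 4146 blocks whose running numbers do not overlap, and the 229 Glyur genes fell in 188 of them. Of the 413 places directly before or after a chosen gene in the same block, 16 (3.87%) were held by chosen genes, while chosen genes made up 0.833% of all Glyur IDs. All Glyur IDs include genes under 5 CPM in DBSi, which could not be chosen. Among the 14810 genes at 5 CPM or more in DBSi, with either kind of ID, chosen genes made up 1.65%. Pairs with numbers at most 10 apart numbered 26 and held 42 genes. No share over all Glyur IDs was taken for these pairs, so nothing is read from their number. Of the 26 pairs, 8 were directly adjacent, and they hold the 16 genes just counted. Of these 8, the pair with the highest DBSi levels was Glyur000100s00008397 and Glyur000100s00008398. The first stood at 183, 205 and 245 CPM in DBSi, 85.5, 27.6 and 31.7 in DSi, 31.7, 35.9 and 40.7 in DB, 17.8, 20.4 and 19.4 in D, and 23.3, 45.2 and 20.9 in CK. The second stood at 135, 131 and 133 CPM in DBSi, the smallest relative spread of all 245 genes at 1.29%, 40.7, 13.5 and 11.9 in DSi, 21.5, 19.95 and 12.7 in DB, 5.45, 6.25 and 6.68 in D, and 8.41, 11.7 and 3.19 in CK. In both genes all DB libraries lay above all D libraries.

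The next adjacent pairs were Glyur000190s00015720 with Glyur000190s00015721, at 197 ± 41.9 and 25.6 ± 7.44 CPM in DBSi (SD, n = 3), and Glyur000211s00017629 with Glyur000211s00017630, at 172 ± 30.2 and 26.2 ± 4.98 CPM (SD, n = 3). The sources used here do not say how reads of overlapping or near-identical genes were counted, so reads of neighbouring copies may be shared between IDs.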

How the data were processed

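The authors deposited CPM values per gene and per isoform for 15 libraries, each column scaled to the same total. The submitters' processing notes name minimap2. The version, the counter, the genome build and any filter are not given in the sources used. Whole reads were recovered, since 100% of the values came out whole (tolerance 0.01 read), with 50341895 reads in all. The members and lists were chosen with earlier results of these data known.

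Tests used log2(CPM + 1) of the 12 libraries outside DBSi in limma 3.58.1 (R 4.3.3; group as factor, intensity trend, two-sided, Benjamini-Hochberg over 22322 genes with 1 CPM in at least 3 of 12 libraries). edgeR 4.0.16 (quasi-likelihood) and DESeq2 1.42.0 ran on the recovered reads. The scripts were tested on simulated data.

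An isoform was given to a gene by its ID, or when the reads of an ONT locus equalled the reads left over in that gene in all 15 libraries (20 reads or more). This completed 29088 of 30197 genes. Counting intervals are exact and cover counting error only, since PCR reads carry no molecular identifiers. Named genes were the 8 with the highest DBSi mean, the 8 with the largest and the 4 with the smallest ratio of lowest DBSi to highest other library, the 3 on each side of each limit, up to 3 neighbouring pairs and up to 4 called isoforms. Alternatives were other limits, pseudocounts (0.5, 2), filters, scalings, a replicate block, edgeR, DESeq2 and leaving out each library.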

Additional observations from a re-analysis of the deposited data

How the results depend on the processing

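The count of 245 genes was 445 with a ratio of at least 2 to each other mean and 133 with at least 4, by construction. It stayed within 1.5 times under the other alternatives run: 268 and 219 with a DBSi mean of 2 or 10 CPM, 265 with overlap allowed, 262 and 266 with median-of-ratios and TMM scaling (242 of the 245 in each), and 198 to 296 without 1 library. DSi-1 was the highest other library in 162 of the 245 genes under either scaling, an alternative chosen after seeing the data. For the same limits in another group, leaving out 1 library gave 31 to 89 genes for CK, 1 to 8 for D, 0 to 3 for DB and 1 to 14 for DSi. Of the 238 tested genes, DESeq2 called 1 in D against CK, 3 in DB against D, 4 in DSi against D and 11 over the 4 groups, with 103, 424, 145 and 524 calls over all genes, and each other alternative called 0 in all 5 tests; the cause was not tested. The isoform count of 9 was 30 with weights and 2 to 13 without 1 library, and 5 reads, 20 reads and shares of 10 to 90% kept it within 1.5 times; the cause was not tested. With the replicate number as a block, 0 genes and 6 isoforms were called; 5 of the 9 isoforms were among them, and ONT.16023.1, ONT.16023.5, ONT.13175.3 and ONT.13175.2 were not (limma adjusted p 0.0566, 0.0525, 0.057 and 0.0525, with differences of the same size). Deviations from the group mean had a mean correlation of 0.0092 over same-numbered libraries of different groups and -0.0047 over other numbers. Of 30 same-numbered pairs over the 5 groups, 8 were correlated above 0.1 (-0.23 to 0.34). Whether the numbers mark a shared batch was not tested. With 1 DBSi library left out, 6 of the 20 named genes had a ratio to the highest other mean under 3: without DBSi-1 it was 1.74 for Glyur000529s00019342, 2.992 for Glyur000947s00021188 and 2.997 for Glyur001880s00033690, and without DBSi-3 it was 2.31 for Glyur000009s00001379, 2.45 for Glyur000947s00021188, 2.79 for Glyur001296s00027377 and 2.83 for Glyur000229s00018878. Levels under 3 reads (0.742 to 0.987 CPM) were not measurable.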
